A study of Homo sapiens with 3 samples.

Results

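The genes described here are the 10 alpha and beta tubulins TUBA1A, TUBA1B, TUBA1C, TUBA4A, TUBB, TUBB2A, TUBB2B, TUBB3, TUBB4B and TUBB6, taken by symbol from the 36601 genes of the count matrices. All 10 were detected in every library. They were measured in the human ovarian cancer line OVCAR3, long used as a model of the high-grade serous type, after 48 hours in DMSO, in 50 μM of the RAC1 inhibitor NSC23766 (RAC1i), or in 50 μM NSC23766 together with 5 μM of the EZH2 inhibitor GSK126 (Combo). NSC23766 blocks activation of the small GTPase RAC1, a regulator of the cytoskeleton, and GSK126 blocks the histone methyltransferase EZH2. Both inhibitors were dissolved in DMSO, so every culture carried it. Each condition was 1 culture of 1 cell line and 1 library of 3′ single-cell RNA sequencing, so treatment, culture and library cannot be told apart and no comparison between conditions was tested. The library of the EZH2 inhibitor alone was not analysed here.

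Alpha and beta tubulin pair into the dimers from which microtubules are built. Several genes encode each partner, and the proteins of these genes, called isotypes, differ mainly in their acidic C-terminal tails, where enzymes remove or add a tyrosine and attach glutamates or glycines. TUBA1B, TUBA1C, TUBB and TUBB4B are the broadly expressed isotypes that supply dividing cells with tubulin for the spindle. TUBA1A, TUBB2A, TUBB2B and TUBB3 are best known from neurons, and TUBB3 has been studied in ovarian and other cancers in connection with taxanes, which bind beta tubulin. Free tubulin dimers feed back on their own mRNAs: TTC5 recognises nascent tubulin chains at the ribosome and brings about decay of the mRNA.

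The kept cells numbered 7531 in DMSO, 10215 in RAC1i and 8239 in Combo, of 10071, 11772 and 9757 deposited barcodes, with medians of 26750, 20989 and 24953 unique molecular identifiers (UMIs, each marking 1 captured mRNA molecule) per cell. Levels are UMIs of the gene per 1000000 UMIs of the kept cells (CPM). A UMI is counted once whatever the length of its transcript, so no division by length was made. Epithelial and serous markers summed to 3577 CPM in DMSO, 1916 in RAC1i and 2108 in Combo, with PAX8 at 355, 54.3 and 47.8 CPM and EPCAM at 320, 274 and 302 CPM. Stromal, leukocyte and endothelial lists stayed at or under 8.27 CPM. The leukocyte list summed to 1.16 CPM in DMSO, 8.27 in RAC1i and 8.003 in Combo, mostly from CD14 (0.894, 7.62 and 7.50 CPM) with LYZ at 0.246, 0.621 and 0.503 CPM, while PTPRC, which defines leukocytes, had 2, 5 and 0 UMIs and the T cell gene CD3E had 1, 1 and 0. Their part in the tubulin differences was not tested. The DMSO library stood apart: its median mitochondrial share was 5.60% against 1.66% and 1.58%, and most expressed genes differed from it by more than 1.5-fold in RAC1i (22.7% of 8778 higher, 36.9% lower) and in Combo (21.3% of 8745 higher, 35.4% lower). At most 23 kept barcodes were shared by any pair of libraries, 0.305% of the DMSO cells.

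The ends of the coding sequences show where the isotypes part. Each line gives, for 8 of the members, the last 45 coding bases before the stop codon, 5′ to 3′ on the gene's own strand, from the canonical GENCODE 44 transcript on GRCh38, within a single exon. Capitals mark the last sense codon.

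TUBA1C: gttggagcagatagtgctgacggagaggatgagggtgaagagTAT
TUBA4A: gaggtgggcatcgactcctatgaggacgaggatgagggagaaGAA
TUBB: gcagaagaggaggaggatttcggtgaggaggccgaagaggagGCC
TUBB2A: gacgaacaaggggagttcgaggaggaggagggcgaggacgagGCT
TUBB2B: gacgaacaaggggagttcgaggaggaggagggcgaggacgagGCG
TUBB3: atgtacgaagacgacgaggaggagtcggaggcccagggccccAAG
TUBB4B: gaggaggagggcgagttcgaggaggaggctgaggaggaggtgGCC
TUBB6: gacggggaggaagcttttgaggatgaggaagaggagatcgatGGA

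TUBA1C ends in a tyrosine codon, as alpha tubulins commonly do. TUBA4A ends in a glutamate codon, so its product lacks the encoded C-terminal tyrosine. Over the whole coding sequence the alpha genes were 84.4% to 97.2% identical (6 pairs) and the beta genes 81.02% to 98.2% (15 pairs). The highest pair was TUBB2A and TUBB2B at 98.2%, which differ within these 45 bases in the last codon and there encode the same amino acid, alanine.

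This likeness bears on the counts, since 3′ reads from near-identical stretches can be set aside or split between copies. Of the 441 windows of 60 bases in the last 500 transcript bases, none of TUBA1C, TUBA4A, TUBB, TUBB2B or TUBB6 was found in a transcript of another gene. The share was 21.1% for TUBB4B, whose partners included TUBB2A, TUBB2B and TUBB3. It was 22.7% for TUBA1A and 46.5% for TUBA1B, whose partners included each other and the pseudogene TUBAP2. It was 54.4% for TUBB2A and 98.9% for TUBB3, the latter mainly found in a readthrough gene model (ENSG00000198211) that was not among the counted genes. The levels of TUBA1A against TUBA1B, and of TUBB2A, TUBB2B, TUBB3 and TUBB4B among themselves, are therefore uncertain by the reads they could share. This was not tested.

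The 10 genes together held 619765 UMIs in DMSO, 546407 in RAC1i and 465897 in Combo, which was 0.311%, 0.233% and 0.219% of the library. Tubulin was seen in nearly every cell, with 4, 48 and 63 cells lacking any tubulin UMI and medians of 63, 41 and 40 tubulin UMIs per cell. The summed level was 3113 CPM in DMSO, 2325 CPM in RAC1i (0.747 of DMSO, 95% interval 0.744 to 0.750) and 2189 CPM in Combo (0.703, 0.701 to 0.706). Alpha tubulin stood at 1735, 1447 and 1240 CPM and beta tubulin at 1378, 878 and 949 CPM. Alpha tubulin thus made up 55.7% of tubulin UMIs in DMSO, 62.2% in RAC1i and 56.7% in Combo. Intervals here are at 95% and cover counting error, not differences between cultures.

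Both inhibitor libraries were set against the same DMSO library, so their ratios are not independent of each other. Past a ratio of 1.5 in either direction, 2 members were higher and 4 lower in RAC1i than in DMSO, beside 22.7% and 36.9% of all genes that reached 10 CPM in the higher library. In Combo, 2 members were higher and 5 lower than in DMSO, beside 21.3% and 35.4% of all genes. With 10 members these counts lie near the background, but the count of lower members depends on how cells are weighted. As means over cells, 2 members were higher and 7 lower in RAC1i (24.7% and 35.4% of all genes) and 2 higher and 6 lower in Combo (23.5% and 34.0%). Thinned to 5000 UMIs, 2 were higher and 6 lower in RAC1i (23.3% and 36.8% of all genes), with the same counts of members in Combo (21.7% and 35.7%). The median log2 ratio of the members, on CPM, was -0.52 in RAC1i and -0.62 in Combo. The median over all genes was -0.20 and -0.17, but taken on CPM + 1, so the measures are not quite alike. With DESeq2 size factors in place of total UMIs the median over all genes was -0.09 and -0.06, so each member's log2 ratio to DMSO moves up by about the same amount under that scaling.

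**Figure D1:**
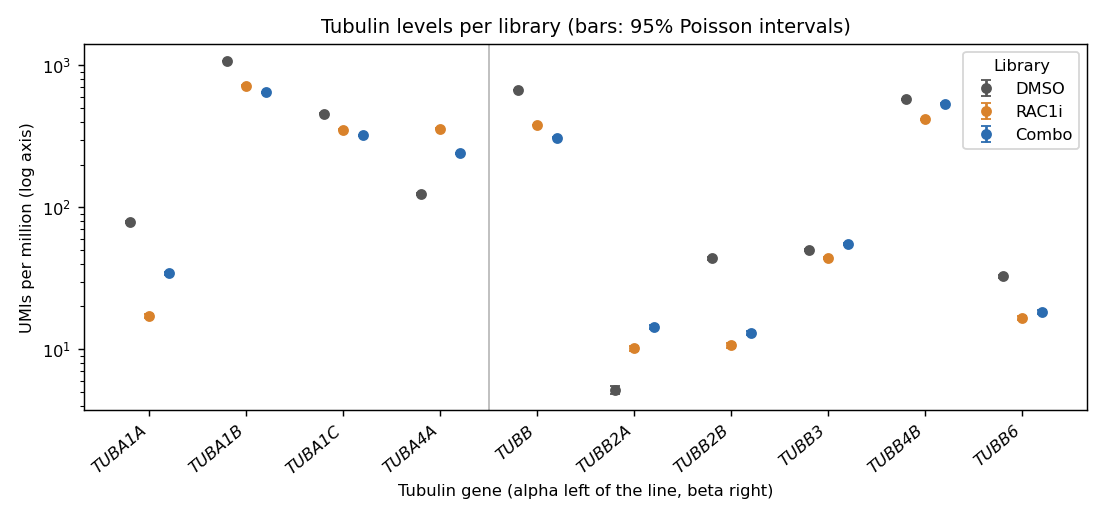
The vertical log axis gives the level in CPM in DMSO, RAC1i and Combo for each tubulin gene, with 95% Poisson intervals that are mostly narrower than the points. TUBA4A was lowest in DMSO (124 CPM) and TUBA1A was highest there (79.3 CPM), while TUBA1B led in each library (1075, 720.5 and 645 CPM).

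TUBA1B, on GRCh38 chr12:49127782-49131397 (minus strand), was the most abundant tubulin in each library. It stood at 1075 CPM in DMSO, 720.5 in RAC1i and 645 in Combo, or 28.4, 16.6 and 16.7 UMIs per cell. The ratios to DMSO were 0.670 (0.666 to 0.674) in RAC1i and 0.6000 (0.596 to 0.604) in Combo. It made up 62.0% of alpha tubulin UMIs in DMSO, 49.8% in RAC1i and 52.0% in Combo.

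TUBA1C, chr12:49188736-49274600 (plus strand), lies in the same alpha tubulin cluster and overlaps TUBA1A on the opposite strand. Its levels were 457 CPM in DMSO, 352 in RAC1i and 321 in Combo. Its ratios to DMSO, 0.771 and 0.703, were the closest to 1 among the alpha genes. Its share of alpha tubulin was 26.3%, 24.4% and 25.9%, so TUBA1C kept about the same place in each library.

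TUBA4A, chr2:219249710-219277902 (minus strand), went the other way. It encodes the alpha tubulin without a terminal tyrosine codon and is known from platelets and from familial motor neuron disease. Its level was 124 CPM in DMSO, 357 in RAC1i and 240 in Combo, or 3.27, 8.21 and 6.19 UMIs per cell.
Those levels gave ratios to DMSO of 2.89 (2.85 to 2.93) and 1.94 (1.91 to 1.97). After each cell was thinned to 5000 UMIs, 38.8% of DMSO cells held a TUBA4A UMI, against 73.9% of RAC1i cells and 62.7% of Combo cells. Its share of alpha tubulin went from 7.12% in DMSO to 24.7% in RAC1i and 19.3% in Combo, which in RAC1i set it level with TUBA1C.

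TUBA1A, chr12:49184686-49189080 (minus strand), the main alpha tubulin of developing neurons, was the least abundant alpha gene in each library. It stood at 79.3 CPM in DMSO, 17.2 in RAC1i and 34.3 in Combo. Against DMSO this was a ratio of 0.216 (0.209 to 0.224) in RAC1i, the lowest of any member, and 0.432 (0.420 to 0.444) in Combo. Its share of alpha tubulin was 4.57%, 1.19% and 2.76%.

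TUBB, chr6:30717435-30725538 (plus strand), the broadly expressed class I beta tubulin, was the leading beta gene in DMSO. It stood at 671 CPM in DMSO, 380.3 in RAC1i and 310.0 in Combo. Its ratios to DMSO were 0.567 (0.562 to 0.572) and 0.462 (0.458 to 0.467). TUBB made up 48.7%, 43.3% and 32.7% of beta tubulin UMIs.

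TUBB4B, chr9:137241287-137243707 (plus strand), the class IVb isotype found in most tissues and abundant in cilia, stood at 576 CPM in DMSO, 417 in RAC1i and 538 in Combo. RAC1i held 0.724 (0.718 to 0.731) of the DMSO level and Combo 0.936 (0.928 to 0.943). With DESeq2 size factors the Combo value lay just above DMSO (log2 ratio 0.02, against -0.10), so no direction is given for it. Of beta tubulin UMIs it took 41.8% in DMSO, 47.5% in RAC1i and 56.7% in Combo. TUBB4B was thus behind TUBB in DMSO and ahead of it in both inhibitor libraries.

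TUBB3, chr16:89921392-89938761 (plus strand), the class III isotype, moved least of the minor genes. Its levels were 49.9, 43.8 and 55.1 CPM, with ratios to DMSO of 0.878 (0.854 to 0.902) and 1.10 (1.08 to 1.14). It took 3.62%, 4.98% and 5.81% of beta tubulin UMIs.

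TUBB2A, chr6:3153497-3157544 (minus strand), and TUBB2B, chr6:3223324-3231730 (minus strand), are the near-identical class II pair. TUBB2B stood at 43.7 CPM in DMSO, 10.7 in RAC1i and 13.0 in Combo, with ratios to DMSO of 0.245 (0.234 to 0.256) and 0.298 (0.285 to 0.311). TUBB2A stood at 5.16, 10.2 and 14.3 CPM, with ratios of 1.97 (1.83 to 2.12) and 2.77 (2.58 to 2.97). By these counts TUBB2B exceeded TUBB2A in DMSO by a wide margin, while in Combo TUBB2A was the higher of the pair. Their order remains uncertain by the reads the pair could share, which was not tested.

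TUBB6, chr18:12307669-12344320 (plus strand), the class V isotype known from regenerating muscle, stood at 32.8, 16.6 and 18.2 CPM. Its ratios to DMSO were 0.506 (0.486 to 0.526) in RAC1i and 0.555 (0.533 to 0.578) in Combo. Its share of beta tubulin was 2.38%, 1.89% and 1.92%.

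**Figure D2:**
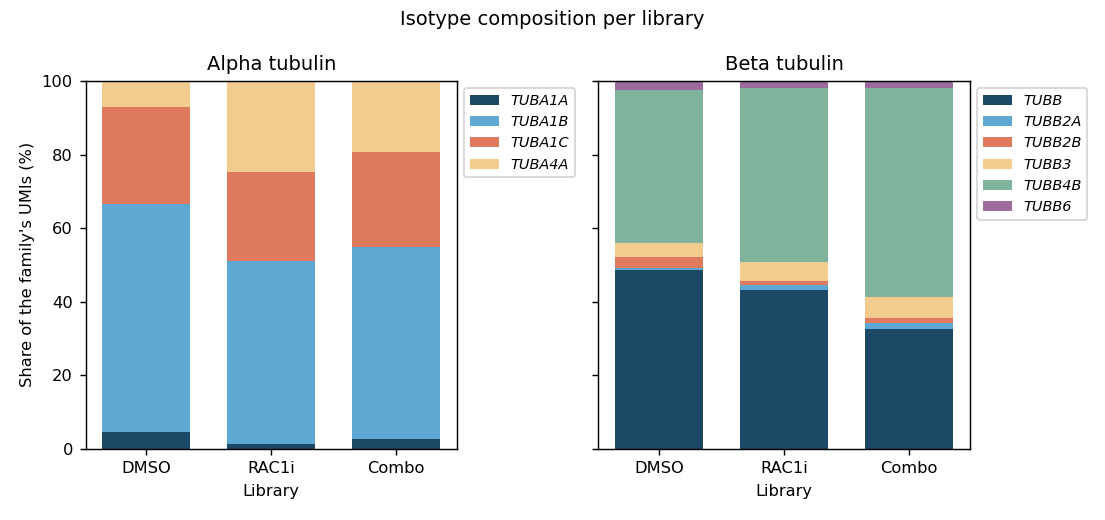
Stacked bars give the percent of alpha tubulin UMIs (left) and of beta tubulin UMIs (right) that came from each gene in DMSO, RAC1i and Combo. TUBA4A took 7.12%, 24.7% and 19.3% of alpha tubulin, and TUBB4B took 41.8%, 47.5% and 56.7% of beta tubulin.

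These shares do not depend on how libraries are scaled to each other. In order of level, the alpha genes in DMSO ran TUBA1B, TUBA1C, TUBA4A, TUBA1A, and in RAC1i TUBA4A (357 CPM, 355 to 359) lay just above TUBA1C (352 CPM, 350.0 to 355) with intervals that overlapped. In Combo, TUBA1C was again the higher of that pair (321 and 240 CPM). Among the minor beta genes, TUBB2A and TUBB2B in RAC1i had overlapping intervals (9.76 to 10.6 and 10.3 to 11.1 CPM). Within each family, all other neighbours in each library's order of levels lay apart by more than counting error.

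Combo and RAC1i differed from each other far less than either differed from DMSO. Of 7443 genes, 13 (0.175%) were more than 1.5-fold higher in Combo than in RAC1i and 36 (0.484%) more than 1.5-fold lower. With TMM scaling that split was 18 higher and 31 lower. TUBA1A was 1 of the 13, at 17.2 CPM in RAC1i and 34.3 in Combo, a ratio of 2.00 (1.92 to 2.08). None of the members was lower past that fold. Over all kept cells TUBA4A came nearest at 0.671 (0.664 to 0.679), just inside the limit of 0.667.
In the beta family TUBB4B had a Combo to RAC1i ratio of 1.29 (1.28 to 1.30), TUBB3 of 1.26 and TUBB2A of 1.41, while TUBB had a ratio of 0.815 (0.807 to 0.823). Summed alpha tubulin was lower in Combo than in RAC1i (ratio 0.857) and summed beta tubulin higher (1.08), and the total stood at 0.942 (0.938 to 0.945).

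Tubulin was then compared between cells with and without a UMI of MKI67, which encodes the proliferation antigen Ki-67. MKI67-positive cells were 64.5% of DMSO, 48.4% of RAC1i and 52.2% of Combo cells. After thinning each cell to 5000 UMIs they were 40.3%, 21.2% and 22.1%. Positive cells were also deeper. Median UMIs of positive and negative cells were 31919 and 12808 in DMSO, 27443 and 15576 in RAC1i, and 31824 and 17732 in Combo. The thinned ratios below use MKI67 classes called again on the thinned counts, so some positive cells count as negative there. Thinning therefore cannot separate the part of depth in the differences that follow, which was not tested.

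Summed tubulin was higher in MKI67-positive cells of each library. In DMSO it was 3407 CPM against 2082 (ratio 1.64, 1.63 to 1.65), in RAC1i 2563 against 1968 (1.30, 1.29 to 1.31) and in Combo 2478 against 1691 (1.47, 1.46 to 1.48). Thinned to 5000 UMIs, the log2 ratios were 0.52, 0.27 and 0.35, against 0.71, 0.38 and 0.55 without thinning. Cells of 1 library are not replicates, so the ratios are given without a test.

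In DMSO, 4 members were more than 1.5-fold higher in MKI67-positive cells, where 4.98% of 8306 genes were. They were TUBB (749 CPM against 396, ratio 1.90), TUBA1B (1186 against 688, 1.72), TUBA1C (502 against 301, 1.67) and TUBB4B (629 against 386, 1.63), the broadly expressed isotypes. None was lower past that fold, where 0.205% of genes were. TUBB2B (ratio 1.37), TUBB6 (1.31) and TUBB3 (1.12) lay between. As a mean over cells, in which each cell has the same weight, TUBB was the 1 member past 1.5-fold, with log2 ratios of 0.44 for TUBA1B and 0.41 for TUBA1C and TUBB4B (1.5-fold is 0.58). Thinned to 5000 UMIs, TUBB and TUBA1C were past it and TUBA1B (0.54) and TUBB4B (0.57) were not. The share of all genes past it was not computed under these alternatives, nor under those given for RAC1i and Combo below.

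In RAC1i, TUBA1B was the 1 member past 1.5-fold (857 CPM against 516, ratio 1.66), where 1.27% of 7386 genes did, and none was lower past it (0.149% of genes). TUBA1C had a ratio of 1.48 (1.45 to 1.497), TUBB of 1.29 (1.28 to 1.31) and TUBB4B of 1.22 (1.21 to 1.24). The call for TUBA1B was lost when cells were thinned (log2 ratio 0.50), and TUBA1C passed 1.5-fold (0.73) when positive cells had at least 2 MKI67 UMIs.

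In Combo, 2 members passed 1.5-fold, TUBA1B (789.9 CPM against 396, ratio 2.00) and TUBA1C (375 against 228, ratio 1.65), where 1.45% of 7445 genes did. None was lower past it, where 0.175% of genes were. TUBB stood at 1.43 (1.41 to 1.46) and TUBB4B at 1.30 (1.29 to 1.32). Thinned, TUBA1B lay just under 1.5-fold (log2 ratio 0.584), and so did TUBA1C (0.55) among cells of 15000 to 40000 UMIs. TUBB passed it (0.65) with at least 2 MKI67 UMIs and TUBB2B (0.60) when thinned.

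TUBA4A did not share this pattern in the inhibitor libraries. In DMSO it was 125 CPM in positive cells and 119 in negative cells (ratio 1.05, 1.02 to 1.08), in RAC1i 333 against 393 (0.848, 0.836 to 0.859) and in Combo 233 against 252 (0.923, 0.906 to 0.939). The DMSO value changed sign when cells were thinned or weighted equally, so no direction is given for DMSO. TUBA4A accordingly made up 32.8% of alpha tubulin UMIs in MKI67-negative RAC1i cells and 20.7% in positive ones. In Combo the same shares were 27.8% and 16.2%, and in DMSO 9.99% and 6.60%.

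**Figure D3:**
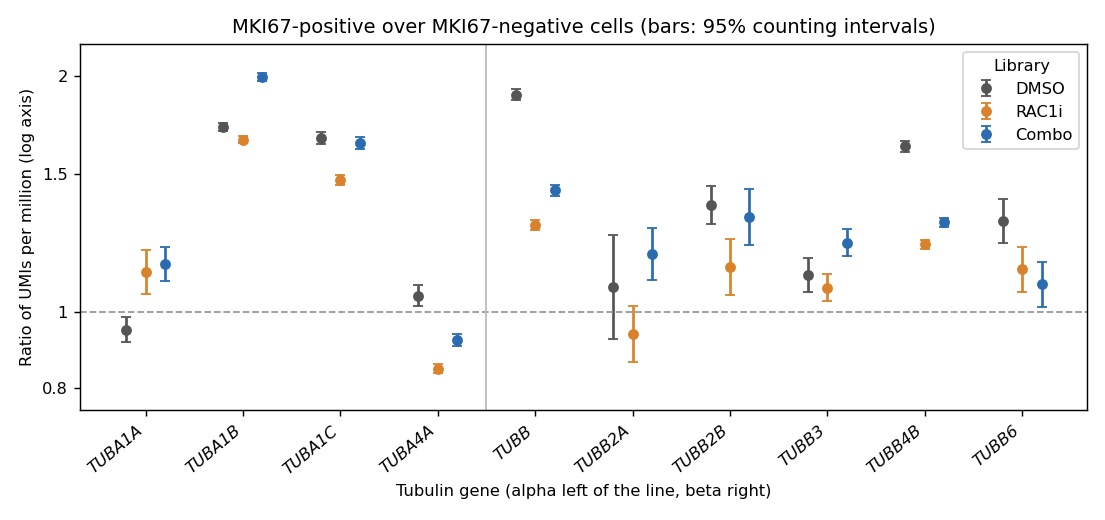
The vertical log axis gives the ratio of CPM in MKI67-positive over MKI67-negative cells for each tubulin gene in DMSO, RAC1i and Combo, with 95% counting intervals and a dashed line at a ratio of 1. TUBA1B lay between 1.66 and 2.00 in the 3 libraries, while TUBA4A lay at 1.05, 0.848 and 0.923.

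TUBA1B took the larger part of alpha tubulin in positive cells, 62.7% against 57.8% in negative cells of DMSO, 53.1% against 43.03% of RAC1i and 55.1% against 43.6% of Combo. TUBA1A in DMSO took 4.15% and 6.93%. In RAC1i and Combo the beta shares lay closer together than this. TUBB4B made up 41.5% of beta tubulin in positive and 43.3% in negative DMSO cells, 47.3% and 47.9% in RAC1i, and 56.4% and 57.6% in Combo. TUBB made up 49.4% and 44.3% of beta tubulin in DMSO, 43.97% and 42.1% in RAC1i, and 33.4% and 31.1% in Combo. The differences in beta composition between libraries were therefore present on each side of the MKI67 split.

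The inhibitor libraries had both a lower share of MKI67-positive cells and a lower tubulin level, so the library ratios are also given within each class. MKI67 itself was lower in these libraries, so the classes need not hold like cells in each library. Among MKI67-positive cells the summed level in RAC1i was 0.752 of DMSO (0.749 to 0.756) and among negative cells 0.945 (0.938 to 0.953). For Combo the same values were 0.727 and 0.812. TUBB in RAC1i was at 0.558 of DMSO in positive cells and 0.818 in negative cells, and TUBB4B at 0.714 and 0.953. For TUBB4B in Combo the values were 0.935 (0.927 to 0.944) in positive and 1.17 (1.15 to 1.19) in negative cells.
Summed alpha tubulin of negative cells was 1199 CPM in RAC1i and 1190 CPM in DMSO, with an interval of the ratio (0.997 to 1.02) that included 1. The RAC1i to DMSO ratios in positive and negative cells were 0.229 and 0.194 for TUBA1A, 0.242 and 0.290 for TUBB2B, 0.503 and 0.580 for TUBB6, 1.89 and 2.17 for TUBB2A, and 2.67 and 3.31 for TUBA4A. The Combo to DMSO ratios were 0.666 and 0.575 for TUBA1B and 0.465 and 0.616 for TUBB. They were 0.459 and 0.379 for TUBA1A and 1.86 and 2.12 for TUBA4A. Those of Combo to RAC1i were 2.01 and 1.96 for TUBA1A, 1.53 and 1.21 for TUBB2A, and 0.698 and 0.641 for TUBA4A.

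The same question was put to cells ordered by the summed share of 15 genes of G2 and mitosis, in 5 equal groups within each library, for cells with at least 5000 UMIs. These groups are relative to their own library: the median of the G2/M genes in the top quintile was 3455 CPM in DMSO, 2307 in RAC1i and 2001 in Combo, and in the lowest it was 202, 399 and 404 CPM. Depth moved with the order as well, with median UMIs of 25453 and 33558 in the lowest and highest quintiles of DMSO, 16288 and 27930 in RAC1i, and 18308 and 34790 in Combo. Its part in the trends was not tested.

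Summed tubulin went from 1545 CPM in the lowest quintile to 4670 in the highest in DMSO, from 1586 to 3017 in RAC1i and from 1290 to 3090 in Combo, higher at each step. Tubulin levels of DMSO and RAC1i thus lay nearer in the lowest quintiles than in the highest, and the G2/M genes themselves were lower in DMSO than in RAC1i at the bottom and higher at the top. TUBA1B went from 459 to 1591 CPM in DMSO, from 357 to 1036 in RAC1i and from 237 to 1037 in Combo. TUBA1C had its widest step between the last 2 quintiles in each library, from 499 to 792 CPM in DMSO, from 350 to 561 in RAC1i and from 308 to 532 in Combo.

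TUBB went from 303 to 964 CPM in DMSO, from 261 to 474 in RAC1i and from 191 to 413 in Combo, so it was lower than DMSO in every quintile. TUBB4B went from 278 to 948 CPM in DMSO, from 281 to 544 in RAC1i and from 356 to 728 in Combo. For TUBB4B, Combo lay above DMSO in the lowest quintile and below it in the highest. By these quintiles TUBA4A ran against TUBA1B, TUBA1C, TUBB and TUBB4B in RAC1i, at 387, 382, 371, 365 and 301 CPM from lowest to highest. In Combo TUBA4A had no steady order, at 241, 251, 255, 242 and 218 CPM, and in DMSO it went from 96.2 to 129 CPM.

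**Figure D4:**
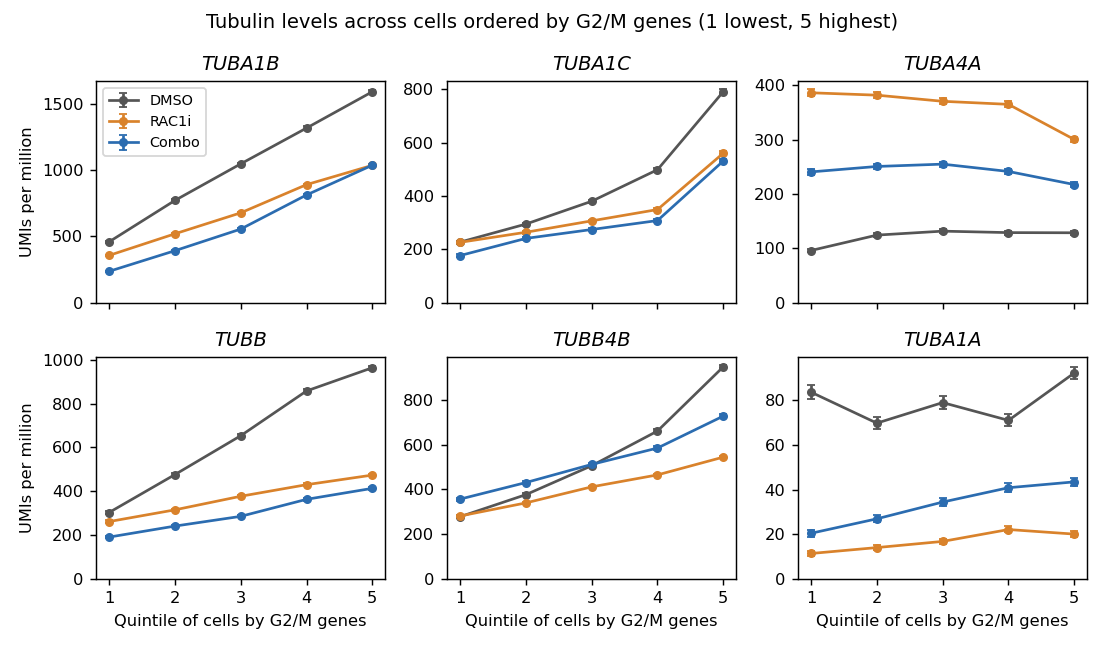
Each panel gives the level of 1 gene (vertical axis in CPM from 0, with 95% Poisson intervals) in 5 equal groups of cells ordered by G2/M genes within DMSO, RAC1i and Combo. TUBB climbed from 303 to 964 CPM in DMSO and from 261 to 474 CPM in RAC1i, while TUBA4A in RAC1i went from 387 down to 301 CPM.

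Ordered by 14 genes of S phase instead, the summed level changed less steeply. Summed tubulin went from 1702 to 3933 CPM in DMSO, from 1776 to 2840 in RAC1i and from 1588 to 2812 in Combo. TUBA1C in RAC1i went from 291 to 380.0 CPM over the quintiles of S phase genes, against 227 to 561 over those of G2/M genes. TUBB showed no such gap, with 273 to 487 CPM in RAC1i by S phase genes.

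Across single cells, the genes whose levels went most closely with TUBA1B among 2126 genes other than tubulins with at least 50 CPM in each library were H2AFZ, a histone variant, TYMS, which makes thymidylate, and BIRC5, the mitotic regulator survivin, followed by UBE2C and PCLAF. The lowest Pearson correlation of the 3 libraries was 0.40 for H2AFZ, 0.39 for TYMS and 0.36 for BIRC5, on log2(CPM per cell + 1). TUBA1C went most with CDK1 (0.38), the kinase that drives entry into mitosis, then with UBE2C, KPNA2, CKS1B and CKS2. Of the same genes, TUBB went most with BIRC5 (0.32), HIST1H4C, UBE2C, CKS1B and PCLAF, and TUBB4B with MAD2L1 (0.30), a protein of the spindle checkpoint, UBE2C, CKS1B, KPNA2 and CDK1.
For TUBA1A, TUBA4A and TUBB3 the lowest correlation of the 3 libraries was at most 0.21 with any of these genes that are not tubulins. COTL1, which encodes an actin-binding protein, came first both for TUBA4A, at 0.20 in DMSO, 0.30 in RAC1i and 0.34 in Combo, and for TUBB3, at 0.21, 0.21 and 0.27. Some tubulins went with each other about as closely or more so: TUBA1B and TUBB were paired at 0.43 in DMSO, 0.37 in RAC1i and 0.42 in Combo, TUBA1B and TUBA1C at 0.35, 0.43 and 0.46, and TUBB4B and TUBA1C at 0.35, 0.37 and 0.38. Every pair of TUBA4A with another member was positive in each library, with TUBA1B at 0.22, 0.25 and 0.30 and with TUBB at 0.21, 0.21 and 0.27. These correlations run over 7531, 10215 and 8239 cells that share a library and differ in depth, and they describe these cells without a test.

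The promoters of these genes were read from RefSeq (GRCh38.p14), where all 10 had an entry, as 250 bases before to 50 bases after the start nearest the canonical transcript. They were searched on both strands for the cell cycle genes homology region (CHR, written TTTGAA or TTTAAA), known from genes expressed in G2 and mitosis, and for the CCAAT box (CCAAT). A CHR match was present in 2 of the 10 members, TUBA1C and TUBB4B, and in 24.0% of all 35116 promoters. A CCAAT match was present in 7 members and in 34.6% of all promoters. TUBA1C and TUBB4B held both motifs. TUBA1B, TUBA4A and TUBB2A held neither. Of these, TUBA4A ran against the G2/M genes in RAC1i. Over the same quintiles TUBA1B went from 357 to 1036 CPM and TUBB2A from 8.81 to 10.15 CPM. The 250 bases before the start are shown for TUBA1C, TUBB4B and TUBA4A. They lie on chr12:49264832-49265081 (plus strand), chr9:137241037-137241286 (plus strand) and chr2:219253919-219254168 (minus strand), and capitals mark the matches.

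TUBA1C: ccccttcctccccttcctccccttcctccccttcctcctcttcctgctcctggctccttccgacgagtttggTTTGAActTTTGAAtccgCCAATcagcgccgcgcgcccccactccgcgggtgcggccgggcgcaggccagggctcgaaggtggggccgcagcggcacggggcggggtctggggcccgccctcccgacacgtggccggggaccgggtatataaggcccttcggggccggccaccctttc
TUBB4B: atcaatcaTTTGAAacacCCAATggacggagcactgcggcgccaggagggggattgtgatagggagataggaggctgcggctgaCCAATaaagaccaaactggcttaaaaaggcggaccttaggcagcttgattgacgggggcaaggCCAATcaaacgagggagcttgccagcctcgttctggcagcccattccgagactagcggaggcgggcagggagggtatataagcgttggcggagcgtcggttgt
TUBA4A: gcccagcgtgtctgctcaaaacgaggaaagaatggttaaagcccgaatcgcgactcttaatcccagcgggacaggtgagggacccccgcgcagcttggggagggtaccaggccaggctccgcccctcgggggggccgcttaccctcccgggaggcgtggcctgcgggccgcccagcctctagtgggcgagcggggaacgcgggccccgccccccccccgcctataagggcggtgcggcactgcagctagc

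A match is a run of letters and not a bound site, and the absence of these letters in TUBA4A says nothing about what controls it. TUBA1B and TUBB, which were also higher in MKI67-positive cells of each library, held no CHR match in the window.

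The genes that fold, modify and bind tubulin were counted in lists by role, beside the same all-gene shares as above (22.7% higher and 36.9% lower in RAC1i than in DMSO). Tubulin chains pass from prefoldin to the CCT chaperonin and then to the tubulin cofactors, which join alpha to beta. Of the 6 prefoldin genes, 4 were more than 1.5-fold higher in RAC1i than in DMSO and 1 lower, and the same counts were found in Combo. PFDN2 stood at 270.0 CPM in DMSO, 999.7 in RAC1i and 845 in Combo (ratios 3.70 and 3.13), and PFDN6 at 82.5, 32.0 and 37.9 CPM (ratios 0.387 and 0.459). The list's median log2 ratio, taken here and for the lists that follow on CPM + 1, was 1.27 in RAC1i and 1.29 in Combo.

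None of the 8 CCT genes passed 1.5-fold in either direction in RAC1i or Combo, with extremes of TCP1 at 1.19 and CCT6A at 0.743 in RAC1i, and of CCT7 at 1.26 and CCT6A at 0.801 in Combo. Of the 6 folding cofactors, 1 was higher and 3 lower in each inhibitor library. TBCC, which stimulates GTP hydrolysis by tubulin during dimer assembly, stood at 17.2 CPM in DMSO, 48.9 in RAC1i and 53.2 in Combo, and ARL2, the GTPase that works with the cofactors, at 69.7, 14.7 and 19.2 CPM. The ratios to DMSO were 2.84 and 3.10 for TBCC and 0.211 and 0.276 for ARL2.

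Of the autoregulation genes, 6 of 7 had at least 10 CPM in DMSO or the inhibitor library, and 2 were lower and 0 higher in RAC1i and in Combo. TTC5 stood at 22.8 CPM in DMSO, 8.74 in RAC1i and 9.79 in Combo (ratios 0.383 and 0.429), and CNOT8, of the deadenylase complex, at 22.3, 27.1 and 22.0 CPM. Of the gamma tubulin and nucleation genes, 10 of 13 had that level, and 6 were lower and 0 higher in each inhibitor library. TUBGCP2, of the gamma tubulin complex, had ratios to DMSO of 0.369 and 0.421, and PCNT, the centrosomal pericentrin, of 1.38 and 1.26. The list's median log2 ratio was -0.72 in RAC1i and -0.67 in Combo.

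STMN1, which binds free tubulin dimers and is abundant in dividing cells, stood at 234 CPM in DMSO, 93.7 in RAC1i and 106 in Combo (ratios 0.400 and 0.451). In the destabilising and severing list, 7 of 10 genes had at least 10 CPM, with 1 higher and 2 lower in RAC1i and 1 higher and 3 lower in Combo. KATNA1, which encodes the severing subunit of katanin, had the highest ratios of that list among genes with at least 10 CPM, 1.51 and 1.74. Of the binding and stabilising genes, 10 of 20 had that level, with 1 higher and 4 lower in each inhibitor library. The plus-end protein MAPRE1 stood at 72.7, 142 and 134 CPM in DMSO, RAC1i and Combo, and MAP7, which recruits kinesin-1, at 37.1, 11.5 and 13.4 CPM.

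Of the 18 tubulin modifying enzymes, 8 had at least 10 CPM, with 1 higher and 4 lower in each inhibitor library. TTLL3, a glycylase, had ratios of 3.14 and 3.26 from a DMSO level of 5.35 CPM, and TTLL7, a glutamylase, of 0.374 and 0.406 from 11.4 CPM. Of the 10 other tubulin genes, 2 reached 10 CPM: TUBD1, delta tubulin, at 14.4, 13.3 and 15.3 CPM in DMSO, RAC1i and Combo, and TUBE1, epsilon tubulin, at 10.8, 5.62 and 5.64 CPM. The remaining 8 were at or under 5.55 CPM, so the 10 genes described here carried nearly all alpha and beta tubulin mRNA counted in these cells.

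MKI67 stood at 177 CPM in DMSO, 65.6 in RAC1i and 68.4 in Combo. Of the 15 G2/M genes, 1 was higher and 7 lower in each inhibitor library than in DMSO, with BIRC5 at 1.73 and 1.86, CENPE lowest in RAC1i (0.373) and TOP2A lowest in Combo (0.423). Of the 14 S phase genes, 1 was higher and 9 lower in RAC1i and 0 higher and 8 lower in Combo, with CDC6 at 1.58 and 1.498, MCM5 lowest in RAC1i (0.283) and MCM4 lowest in Combo (0.274). Between Combo and RAC1i, FIGN, a severing enzyme chosen after its value was seen, was the 1 gene of these lists past 1.5-fold among those with at least 10 CPM (34.4 CPM in RAC1i, 22.8 in Combo, ratio 0.662).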

How the data were processed

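OVCAR3 cells in DMSO, RAC1i and Combo were profiled with the 10x 3′ v3.1 chemistry, 1 library per condition. The deposited values are raw counts of UMIs per gene and cell, which the authors made with Cell Ranger 4.0.0 (version from the submitters' processing notes) on GRCh38, without normalization or a later filter on cells. How reads that match several genes were assigned is not given in the sources used here.

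From these counts, cells were kept by the limits of the study's methods: over 1000 genes, a mitochondrial share of at most 20%, and log10 genes over log10 UMIs (complexity) above 0.8. Kept cells held 96.0%, 92.2% and 88.5% of the UMIs. UMIs were summed over kept cells per library or class and given as CPM. A cell with at least 1 MKI67 UMI was called positive. Intervals at 95% were exact Poisson for CPM, exact conditional for ratios and Clopper-Pearson for shares. They cover counting error only. No doublet caller was run. Leaving out the 8% of cells with the most UMIs was an alternative. For shares of cells, each cell was thinned to 5000 UMIs, leaving out 806, 1015 and 885 shallower cells. Genes past 1.5-fold that reached 10 CPM in the higher group gave the background shares. A gene symbol with several identifiers was summed.

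Coordinates and coding sequences came from GENCODE 44, which held every member's identifier, and promoters from RefSeq. Sequences of proteins were not used here. The members, lists and alternatives were chosen with earlier results of these data known. Named genes were the 10 members, the genes highest and lowest in ratio of each list in RAC1i and Combo against DMSO, TTC5, STMN1, MKI67, and for each member with at least 50 CPM in some library the 5 genes with the highest of the lowest correlation over the libraries. Of the genes and sequences so chosen, 1 gene and 2 sequences are not reported here, and for TUBA1A, TUBA4A and TUBB3, whose correlations were weak, the highest value is given in place of the 5 genes. PAX8, EPCAM, PTPRC, CD3E, CD14 and LYZ come from the marker lists. Alternatives used other limits on cells, TMM factors from edgeR 4.0.16, size factors from DESeq2 1.42.0, a total without mitochondrial genes, means over cells, thinning and other MKI67 classes. The calculations were tested on simulated data. Python 3.11.15, NumPy 2.4.6, SciPy 1.17.1, pandas 2.3.3, Biopython 1.88 and R 4.3.3 were used.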

Additional observations from a re-analysis of the deposited data

Results flagged for a closer look

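TUBA1A and TUBA4A lay on opposite sides of 1 between libraries in the comparison of MKI67-positive with MKI67-negative cells, each with at least 1 interval above 1 and 1 below it. In DMSO, RAC1i and Combo the ratio was 0.951, 1.13 and 1.15 for TUBA1A, and 1.05, 0.848 and 0.923 for TUBA4A. With 1 library per condition the differences between libraries were not tested. Thinned to 5000 UMIs, TUBA1A had log2 ratios of -0.0037, -0.071 and -0.056 in the same libraries, so its opposite directions were not kept under thinning. For TUBA4A in DMSO the log2 ratio was -0.11 when thinned and -0.15 as a mean over cells, against 0.07, while RAC1i and Combo stayed below 0 under each of the 6 alternatives.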

How the results depend on the processing

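No paired analysis was possible because each condition was 1 library and no replicate numbers were given. Of 72 alternative values for levels and shares that answer a comparison, 21 moved by less than counting error, 51 moved by more and 0 changed sign. Shares are always positive, so only the log2 ratios of levels could have changed sign. The log2 ratio of summed tubulin in RAC1i over DMSO, -0.42, was -0.46 with a mitochondrial limit of 10%, -0.39 with every deposited barcode, -0.34 with TMM, -0.31 with DESeq2 size factors, -0.49 with a total without mitochondrial genes, -0.56 as a mean over cells and -0.48 when thinned. In the same order Combo over DMSO, -0.51, was -0.54, -0.46, -0.42, -0.39, -0.57, -0.68 and -0.58, and -0.53 without the 8% of cells with the most UMIs. Combo over RAC1i, -0.09, was -0.072 with every barcode, -0.076 with TMM, -0.12 as a mean over cells, -0.094 when thinned and -0.11 without the deepest cells. The count of members past 1.5-fold went from 6 up to 9 for RAC1i over DMSO and from 7 up to 8 for Combo over DMSO, both as means over cells, and all 16 alternative counts were within 1.5 times the main one. The TUBA1B share of alpha tubulin in DMSO, RAC1i and Combo was 62.5%, 48.4% and 50.8% when thinned, 62.2%, 49.5% and 51.8% without the deepest cells and 59.97%, 44.1% and 44.7% as a mean over cells. The TUBB share of beta tubulin was 46.6%, 43.97% and 33.1% when thinned, 47.8% and 43.6% without the deepest cells (DMSO and RAC1i), and 46.5%, 45.4% and 34.7% as a mean over cells. The log2 ratio of summed tubulin between MKI67-positive and negative cells in DMSO, RAC1i and Combo was 0.78, 0.47 and 0.68 with at least 2 MKI67 UMIs, 0.52, 0.27 and 0.35 when thinned, and 0.42, 0.41 and 0.53 as a mean over cells. With cells of 15000 to 40000 UMIs it was 0.88 in DMSO and 0.48 in Combo, with a mitochondrial limit of 10% it was 0.68 in DMSO, and without the deepest cells it was 0.40 in RAC1i and 0.53 in Combo. The cause of these moves was not tested. Of 420 alternative values for single members, 188 moved by less than counting error and 232 by more. The direction of TUBB4B in Combo over DMSO changed with DESeq2 size factors (log2 ratio 0.02). Between MKI67 classes it also changed for TUBB2A in DMSO as a mean over cells (-0.17) and in RAC1i with cells of 15000 to 40000 UMIs (0.10), and when thinned for TUBB2B (-0.03) and TUBB3 (-0.23) in RAC1i. Members past 1.5-fold between MKI67 classes numbered 1 to 4 in DMSO, 0 to 2 in RAC1i and 1 to 3 in Combo over the settings. In the main setting 4.98%, 1.27% and 1.45% of all genes were higher by that fold. That share was not computed under the other settings, so the range of member counts cannot be set against it. Depth limits the MKI67 comparisons, whose directions changed with thinning for several minor members, and the spread between cultures was not measured.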
